A study of Mus musculus with 23 samples.

Results

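Caveolae are small flask-shaped pits of the plasma membrane, and the genes described here encode their coat: the caveolins Cav1 and Cav2, the cavins Ptrf, Sdpr and Prkcdbp (current symbols Cavin1, Cavin2 and Cavin3) and the neck protein Ehd2. They were chosen by symbol, and all 6 members were found among the 24029 genes of the RNA table. RNA was measured in 6 of the 23 samples of the series, all from C3H10T1/2, a mouse mesenchymal stem cell line of C3H strain that can be turned into fat cells. Day 7 stands for mature adipocytes and day 0 for pre-adipocytes. By the protocols, the growth medium held 8.3 nM BMP7 for 3 days before differentiation. The day 7 cells then had dexamethasone (5 uM), IBMX (0.5 mM), insulin (0.12 ug/ml), a compound labelled Rosi (1 uM) and T3 (1 nM) until day 2, and insulin, Rosi and T3 after that. TELP, a library construction method for small amounts of nucleic acid, gave 3 libraries at day 7, labelled T18, N9_ss and N9, and the N9 library at day 0. A standard oligo(dT)-selected procedure gave a library at day 7 and another at day 0, the standard pair. Each group is thus 1 library of 1 cell line, so no value has a replicate error, and the labels do not say whether the RNA came from separate cultures.

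Fat cells are among the cells richest in caveolae. Caveolins are inserted into the inner leaflet of the membrane and assemble into oligomers that bind cholesterol, while cavins are recruited from the cytosol and coat the bulb. EHD2 is an ATPase that forms a ring at the neck and keeps the pit at the surface. Loss of caveolin-1 or cavin-1 causes lipodystrophy in humans and in mice. Caveolae buffer membrane tension and have been reported to hold the insulin receptor and the fatty acid transporter CD36.

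Values are RPKM, read numbers adjusted for gene length and library depth, as the authors deposited them. Levels of different genes are set side by side on that scale within a library. Ratios between genes differed between libraries of the same day, with Ehd2 to Cav1 at 0.404 in T18 and 3.87 in N9 at day 7. Such orders and shares therefore hold for the library named. The steps between low values gave an approximate depth of 4760000 reads for T18, 5760000 for N9_ss, 5500000 for N9 day 7, 22600000 for N9 day 0, 14200000 for standard day 7 and 14400000 for standard day 0. In T18 6797 genes stood at 1 RPKM or more, against 10306 to 11306 in the other libraries. Differences are on the log2(RPKM + 1) scale. The filter, a mean of 1 RPKM across the 4 standard and N9 libraries, left 11474 genes, and a difference of 1 or more in size counts as a call. Fat cell identity was checked with 8 adipocyte markers, and 8 of 8 were called higher at day 7 in both library types. Their summed level in TELP N9 was 32463 RPKM on day 7 against 33.7 on day 0, and in the standard pair 14714 RPKM on day 7 against 43.4 on day 0. In whole-culture RNA, a different number of cells of a type and a different amount of RNA per cell cannot be told apart.

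Most caveolae genes were higher in adipocytes than in pre-adipocytes. Cav1, Cav2, Sdpr and Ehd2 were called higher in both library types, Ptrf in TELP N9, and Prkcdbp in neither. In TELP N9 5 of 6 members were called higher, where 13.5% of all genes were. In the standard pair 4 of 6 were, where 8.30% of all genes were, and 4 of 6 were called higher in both types, against 7.23% of all genes. The median difference of the members was 2.25 in TELP N9 and 1.35 in the standard pair, beside medians over all genes of -0.46 in TELP N9 and -0.17 in the standard pair. None was called lower. Summed over the 6 members, TELP N9 held 1754 RPKM on day 7 against 573 on day 0, and the standard pair held 852 RPKM on day 7 against 546 on day 0.

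**Figure D1:**
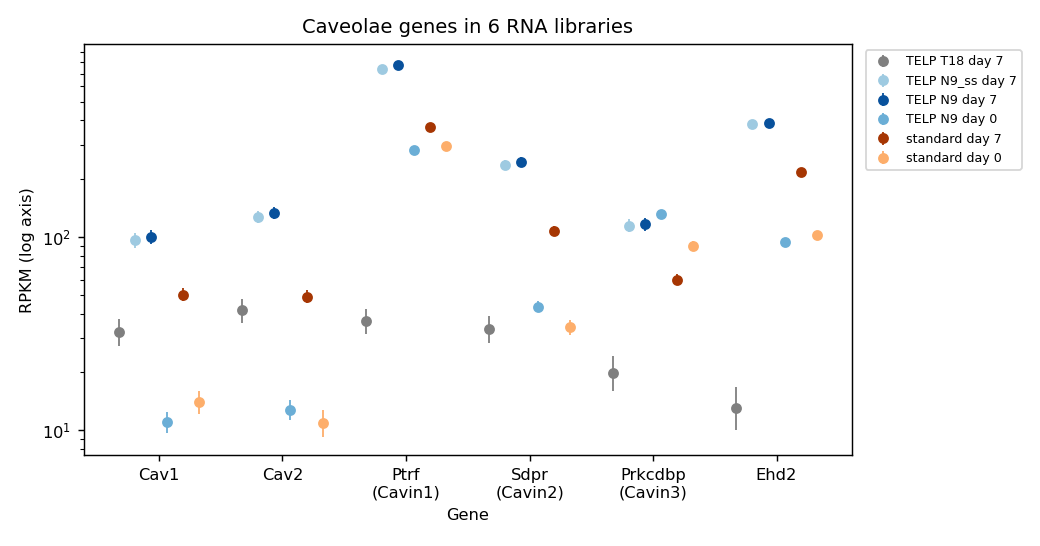
RPKM of each caveolae gene (log axis) in 6 RNA libraries, 1 point per library, with bars for the exact 95% Poisson interval of a gene model of 1 kb, which cover counting error only. Cav1, Cav2, Sdpr and Ehd2 lie higher at day 7 than at day 0 in N9 and in standard libraries, and T18 is the lowest day 7 library for each gene.

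The caveolins had the largest differences of the 6 members in both library types. Cav1 encodes caveolin-1, the protein without which most cells form no caveolae. It stood at 100.2 RPKM at day 7, against 10.99 at day 0, in TELP N9, and at 50.3 RPKM at day 7, against 13.9 at day 0, in the standard pair. Its day 7 value was 95.9 RPKM in N9_ss, a column too close to N9 to count as independent, and 32.2 RPKM in T18. Both values lay above both day 0 libraries, and the share of all genes that did so was not counted. On the log2 scale Cav1 was higher by 3.08 in TELP N9 and by 1.78 in the standard pair, and 96.8% of all genes had a lower difference in TELP N9 and 96.3% in the standard pair.

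Cav2 encodes caveolin-2, which joins oligomers with caveolin-1 and depends on it to leave the Golgi. It was at 132.8 RPKM at day 7, against 12.7 at day 0, in TELP N9, and at 49.1 RPKM at day 7, against 10.9 at day 0, in the standard pair. N9_ss held 126.9 RPKM and T18 41.7 RPKM, also above both day 0 libraries. The differences were 3.29 in TELP N9 and 2.07 in the standard pair. The ratio of Cav2 to Cav1 was 1.33 at day 7 and 1.16 at day 0 in TELP N9, and 0.976 on day 7 against 0.783 on day 0 in the standard pair. In both standard libraries and in N9 day 0 the counting intervals of Cav1 and Cav2 overlapped for a model of 1 kb, so their order there is not resolved.

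Cav1 and Cav2 lie side by side on chromosome 6. Their start regions are shown with that of Sdpr because these 3 members had the largest day 7 against day 0 differences in both library types. The bases are the 250 before the annotated gene start, written 5′ to 3′ on the gene's strand, from RefSeq in GRCm38.p6, a later build than the mm9 of the expression values. Capitals mark matches on either strand to motifs that were searched: TGACTCA (AP-1), GGGCGG (GC box), the CCAAT box, the TATA box (letters TATAAA) and the TEAD site (letters CATTCC), none of which overlapped in these windows. The windows are chr6:17306085-17306334 for Cav1, chr6:17280935-17281184 for Cav2 and chr1:51288876-51289125 for Sdpr, all on the plus strand. RefSeq gives Cav1 another start, whose window at chr6:17307390-17307639 held no match to any motif searched and is not shown.
Cav1: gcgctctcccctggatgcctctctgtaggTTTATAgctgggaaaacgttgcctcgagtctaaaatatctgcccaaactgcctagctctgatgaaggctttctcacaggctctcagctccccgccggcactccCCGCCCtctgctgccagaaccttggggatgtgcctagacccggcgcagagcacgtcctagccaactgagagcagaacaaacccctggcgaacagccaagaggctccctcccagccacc
Cav2: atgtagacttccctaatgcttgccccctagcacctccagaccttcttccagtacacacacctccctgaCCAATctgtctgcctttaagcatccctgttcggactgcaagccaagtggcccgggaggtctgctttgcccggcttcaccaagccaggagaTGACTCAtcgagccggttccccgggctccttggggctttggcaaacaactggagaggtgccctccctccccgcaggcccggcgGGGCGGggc
Sdpr: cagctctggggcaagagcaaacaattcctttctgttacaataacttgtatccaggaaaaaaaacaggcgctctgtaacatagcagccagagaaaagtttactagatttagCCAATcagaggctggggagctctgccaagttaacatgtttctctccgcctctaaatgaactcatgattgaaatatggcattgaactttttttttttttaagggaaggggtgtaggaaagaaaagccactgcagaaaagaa
The Cav1 window shown held a TATAAA and a GGGCGG match, both on the minus strand, and the Cav2 window matches to the CCAAT box, AP-1 and the GC box on the plus strand. The Sdpr window held a CCAAT match. A PPAR/RXR direct repeat was also searched for, had no match in these windows, and occurs in 0.0335% of all windows. Over 32851 windows of all genes, TGACTCA occurs in 4.46%, TATAAA in 12.4%, GGGCGG in 32.7%, CCAAT in 33.9% and CATTCC in 12.6%. GC made up 59.6% of the Cav1 window, 62.0% of the Cav2 window and 40.4% of the Sdpr window, where the median window had 52.4%. Windows were found for 5 of 6 members, without Prkcdbp, and a match is a description of letters, not of binding.

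The cavins did not move alike. Ptrf encodes cavin-1, the coat protein needed for caveolae to form, first described as a factor that releases transcripts of RNA polymerase I. It had the highest level of the members in every library except T18. Ptrf stood at 773 RPKM at day 7, against 280.2 at day 0, in TELP N9, and at 370 RPKM at day 7, against 295 at day 0, in the standard pair. N9_ss held 741 RPKM and T18 36.5 RPKM, below both day 0 libraries. The difference was 1.46 in TELP N9, or 0.95 there under equal totals, and 0.33 in the standard pair, short of a call. Of all genes 90.5% had a lower difference than Ptrf in TELP N9 and 79.1% in the standard pair.

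Sdpr encodes cavin-2, which helps to bend the membrane and differs in amount between tissues. It was at 245 RPKM at day 7, against 43.6 at day 0, in TELP N9, and at 108 RPKM at day 7, against 34.0 at day 0, in the standard pair. N9_ss held 236 RPKM, while T18, at 33.3 RPKM, lay below N9 day 0. The counting intervals of T18 and of standard day 0, at 34.0 RPKM, overlapped for a model of 1 kb, so their order is not resolved. Sdpr was higher by 2.46 in TELP N9 and by 1.63 in the standard pair.

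Prkcdbp encodes cavin-3, named for its binding to protein kinase C delta. It was the member with no call at day 7 against day 0. Its level was 116 RPKM at day 7, against 132 at day 0, in TELP N9, and 59.996 RPKM at day 7, against 90.2 at day 0, in the standard pair. N9_ss held 114 RPKM and T18 19.6 RPKM. The differences were -0.17 in TELP N9, where the sign changed to 0.36 under median of ratios, and -0.58 in the standard pair. In TELP N9 60.7% of all genes had a lower difference, and in the standard pair 19.0%. The ratio of Sdpr to Prkcdbp was 2.11 on day 7 against 0.332 on day 0 in TELP N9, and 1.79 on day 7 against 0.377 on day 0 in the standard pair, so Sdpr was above Prkcdbp at day 7 and under it at day 0, per gene length. T18 had a ratio of 1.69, on the side of the other day 7 libraries.

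Ehd2 was the second most abundant member at day 7 in N9, N9_ss and standard libraries. It stood at 387 RPKM at day 7, against 94.1 at day 0, in TELP N9, and at 215 RPKM at day 7, against 102 at day 0, in the standard pair. N9_ss held 382 RPKM, and T18 held 13.0 RPKM, the lowest value of any member in that library. Its counting interval there overlapped that of Prkcdbp at 19.6 RPKM, for a model of 1 kb. The differences were 2.03 in TELP N9 and 1.08 in the standard pair. The standard value lay close to the threshold of 1, though no alternative that applies to the standard libraries took it below.

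**Figure D2:**
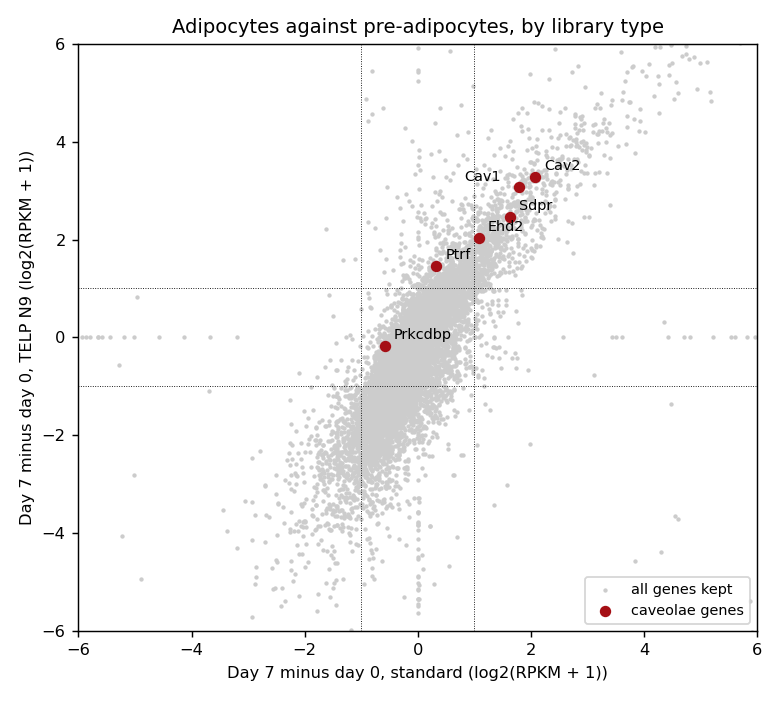
Day 7 minus day 0 in TELP N9 libraries (vertical) against the same difference in standard libraries (horizontal), in log2(RPKM + 1), for all 11474 genes kept (grey) and the 6 caveolae genes (red), with dotted lines at the calling threshold of 1. Cav1, Cav2, Sdpr and Ehd2 lie beyond 1 on both axes, Ptrf at 1.46 in TELP N9 and 0.33 in standard, and Prkcdbp below 0 on both; 178 genes lie outside the axes.

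The differences were also fitted with limma over all 11474 genes, with library type as a block, on 4 libraries and 1 residual degree of freedom. The residual spread of a gene is how far its day 7 against day 0 difference disagreed between library types. limma then pools it with a value drawn from all genes, weighted by 3.14 prior degrees of freedom against the 1 residual. The SE and p-values below thus rest largely on that pooled value. Neither spread can give the spread between replicate cultures. The fitted difference was 2.68 ± 0.42 (SE) for Cav2, 2.43 ± 0.44 for Cav1, 2.05 ± 0.36 for Sdpr, 1.55 ± 0.38 for Ehd2, 0.89 ± 0.41 for Ptrf and -0.38 ± 0.32 for Prkcdbp. At a Benjamini-Hochberg adjusted p of 0.05, 0 of 6 members passed limma, where 0.715% of all genes were called higher. The adjusted p was 0.0902 for Cav2, 0.102 for Sdpr, 0.103 for Cav1, 0.139 for Ehd2, 0.242 for Ptrf and 0.449 for Prkcdbp in limma. An unadjusted p under 0.05 was reached by 4 of 6 members and by 3014 of all genes. Under equal totals 2 of 6 passed, Cav2 at an adjusted p of 0.0131 and Cav1 at 0.0333 in limma. In that setting 416 of 11498 genes were called higher, where the main fit had 82 of 11474. Over the alternatives the smallest adjusted p of a member in limma ranged from 0.0131 to 0.607. Both ends of that range come from fits, under equal totals and with T18 in place of N9, where limma gave each gene the same SE. Those fits order genes by size of difference alone and are not like the main fit.

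Relative to each other, caveolin transcripts took a larger share of the caveolae mRNA at day 7 and cavin-3 a smaller one. Cav1 and Cav2 together made up 13.3% of the summed RPKM on day 7 against 4.14% on day 0 in TELP N9, and 11.7% on day 7 against 4.55% on day 0 in the standard pair. Prkcdbp made up 6.63% on day 7 against 22.9% on day 0 in TELP N9, and 7.04% on day 7 against 16.5% on day 0 in the standard pair. The 3 cavins together held 64.7% on day 7 against 79.4% on day 0 in TELP N9, and 63.1% on day 7 against 76.8% on day 0 in the standard pair. These shares do not depend on scaling by a factor per library. The ratio of Ptrf to Cav1 was 7.72 on day 7 against 25.5 on day 0 in TELP N9, and 7.35 on day 7 against 21.2 on day 0 in the standard pair.

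**Figure D3:**
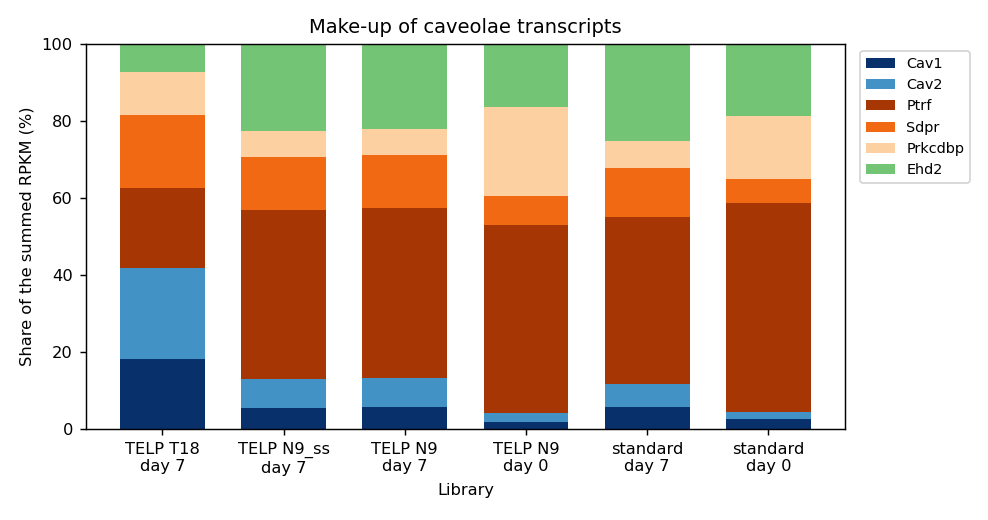
Share of each gene in the summed RPKM of the 6 caveolae genes (vertical axis, percent), 1 bar per library. The caveolins in blue take 13.3% in N9 and 11.7% in standard at day 7, against 4.14% in N9 and 4.55% in standard at day 0, and 41.9% in T18.

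The order of levels at day 7 was Ptrf, Ehd2 and Sdpr, followed by Prkcdbp, Cav1 and Cav2 in the standard library and by Cav2, Prkcdbp and Cav1 in N9. For a model of 1 kb, the counting intervals of Cav2 and Prkcdbp, and those of Prkcdbp and Cav1, overlapped in N9 day 7. At day 0 Ptrf was followed by Ehd2 at 102 and Prkcdbp at 90.2 RPKM in the standard library, and by Prkcdbp at 132 and Ehd2 at 94.1 RPKM in TELP N9. Sdpr came next and the caveolins last in both day 0 libraries. Among the 11474 genes, Cav1 lay above 94.1% of genes on day 7 against 52.8% on day 0 in TELP N9, and above 89.3% on day 7 against 60.7% on day 0 in the standard pair. Ptrf lay above at least 98.3% of genes in each of these libraries. The lowest number of reads behind a member, per kilobase of model, was about 61.9, for Ehd2 in T18, and about 157 outside T18, for Cav2 in standard day 0.

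The caveolae genes differed little between the TELP N9 and standard libraries at day 0 and more at day 7. At day 0 TELP N9 minus standard lay between -0.32 for Cav1 and 0.54 for Prkcdbp, and 0 of 6 members were called, where 2.76% of all genes were called in either direction. At day 7 the members lay between 0.84 for Ehd2 and 1.42 for Cav2, with a median of 1.02 beside -0.25 over all genes. Cav2, Sdpr and Ptrf, 3 of 6, were called higher in N9 at day 7, where 7.00% of all genes were. Median of ratios gave 6 of 6 called higher and equal totals 0 of 6, with the median of all genes at 0.04 and -0.88, so the count rests on the scaling. Relative to the median of all genes, each member was higher in N9 as deposited and under each of the 3 other scalings. The cell markers differed between these day 7 libraries too. Adipocyte markers summed to 32463 RPKM in N9 and 14714 in standard, and preadipocyte markers to 41.0 in N9 and 157 in standard. Library type and the state of the cells were not separated, and the cause was not tested.

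Day 7 minus day 0, with its sign, was thus higher in TELP N9 than in the standard libraries for each member, by 0.41 for Prkcdbp to 1.29 for Cav1. For Prkcdbp, at -0.17 in TELP N9 and -0.58 in the standard pair, the difference was smaller in size in TELP N9. The signed difference was higher in TELP N9 by at least 1 for Cav1, Cav2 and Ptrf, 3 of 6 members, against 5.99% of all genes. That count was 0 under equal totals, 1 under quantile normalization and 5 under median of ratios. The median of all genes was -0.27, which shifted to 0.05 under median of ratios and to -0.70 under equal totals. The value of Prkcdbp was -0.12 under equal totals. With 1 library per group this difference was not tested.

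Among the day 7 TELP libraries, N9_ss and N9 gave nearly the same caveolae values. N9_ss minus N9 lay between -0.06 for Cav2 and -0.02 for Ehd2, with 0 of 6 members called, where 0.0290% of all genes were called in either direction. In approximate reads per kilobase, Cav2 had 730 in both, and Cav1 had 552 in N9_ss and 551 in N9. These columns agree too closely to be taken as independent and were not counted as replicates.

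T18 stood apart. All 6 members were called lower in T18 than in N9 at day 7, but so were 83.4% of 9753 genes, with a median of -1.77. Cav1 at -1.61 and Cav2 at -1.65 lay near that median. Prkcdbp at -2.51 and Sdpr at -2.84 lay under it, and Ptrf at -4.37 and Ehd2 at -4.79 were among the lowest genes, with 0.943% and 0.605% of genes lower still. Under median of ratios, where the median of all genes was -0.09, 2 of 6 members were called lower, Ehd2 at -2.65 and Ptrf at -2.19, against 13.8% of 9333 genes. Cav1 and Cav2 then stood at 0.55 and 0.52. The ratio of Ehd2 to Cav1 was 0.404 in T18 and 3.87 in N9, and that of Ptrf to Cav1 1.14 in T18 and 7.72 in N9, which no scaling by 1 factor per library can change. Cav2 was the highest member in T18, at 41.7 RPKM, but its counting interval overlapped that of Ptrf at 36.5 RPKM.

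**Figure D4:**
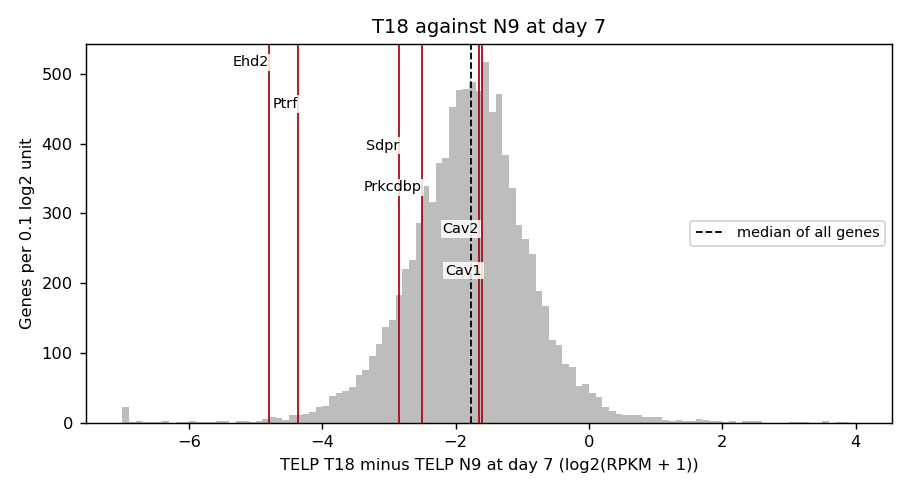
Number of genes (vertical axis) by T18 minus N9 difference at day 7 in log2(RPKM + 1), in bins of 0.1, with values beyond the axis placed in the end bins. Red lines mark the caveolae genes and the dashed line the median of all genes at -1.77; Cav1 and Cav2 lie beside the median, Ptrf and Ehd2 in the lower tail.

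Genes that act with or sit in caveolae were set beside the members, in 5 lists of 27 genes, of which 22 passed the filter. In both types alike 4 were called higher and 4 lower on day 7, beside 7.23% of all genes called higher and 5.81% called lower. The muscle forms were all but missing. Cav3, the caveolin of muscle, was listed at 0 in 6 of 6 libraries, and Murc, the muscle cavin, reached 1.38 RPKM in N9 day 7 at most.

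Among 7 measured dynamins, EHD proteins and pacsins, which pinch, anchor or bend membranes, 0 were higher in both types and 1 lower. Dnm1, a dynamin best known from neurons, was at 3.12 RPKM at day 7, against 47.3 at day 0, in TELP N9, and at 18.8 RPKM at day 7, against 51.1 at day 0, in the standard pair. The list had a median of -0.68 in TELP N9 and -0.21 in the standard pair. The other EHD proteins did not share the call of Ehd2, with Ehd1 at 0.97 and 0.63, Ehd3 at -1.86 and -0.12 and Ehd4 at -0.68 and -0.33 in TELP N9 and standard. The flotillins, scaffold proteins of other membrane domains, were not called, with Flot1 at 0.52 and 0.25 and Flot2 at 0.33 and -0.11, in the same order.

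Of 6 caveolin kinases, anchors and turnover factors, 3 were lower in both types and 0 higher. Flna, the actin crosslinker filamin A that ties caveolae to stress fibres, was at 16.7 RPKM at day 7, against 134 at day 0, in TELP N9, and at 79.0 RPKM at day 7, against 197 at day 0, in the standard pair. Fyn and Src, kinases that phosphorylate caveolin-1, differed by -2.45 and -2.25 in TELP N9 and by -1.32 and -1.004 in the standard pair, and Src stood at the threshold in the standard libraries. Of the receptors and enzymes reported in caveolae, 4 of 7 measured genes were called higher in both types, where 7.23% of all genes were, and 0 lower. The rest lay below 0 in both types. In TELP N9 and the standard pair, Pdgfrb differed by -2.82 and -0.38, Tgfbr1 by -0.97 and -0.47 and Bmpr1a by -0.70 and -0.22. Cd36, the fatty acid transporter, was at 745 RPKM at day 7, against 0.0967 at day 0, in TELP N9, and at 416 RPKM at day 7 and listed at 0 at day 0 in the standard pair. Scarb1, a receptor for high-density lipoprotein, differed by 5.94 in TELP N9 and 4.18 in standard libraries, Adcy6, an adenylyl cyclase, by 2.03 and 1.32, and Insr, the insulin receptor, by 1.32 and 1.16. Insr itself was at 12.9 RPKM at day 7, against 5.20 at day 0, in the standard libraries. Of the genes in these lists Cd36 alone passed limma with library type as a block, at an adjusted p of 0.0213. Its call was lost in limma at a pseudocount of 0.1 RPKM (adjusted p = 0.0567), without a filter (adjusted p = 0.289), with a filter at 5 RPKM (adjusted p = 0.0531) and with N9_ss (adjusted p = 0.0529). Scarb1 passed limma with the trend (adjusted p = 0.0379), and Scarb1, Dnm1 and Flna passed under equal totals.

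**Figure D5:**
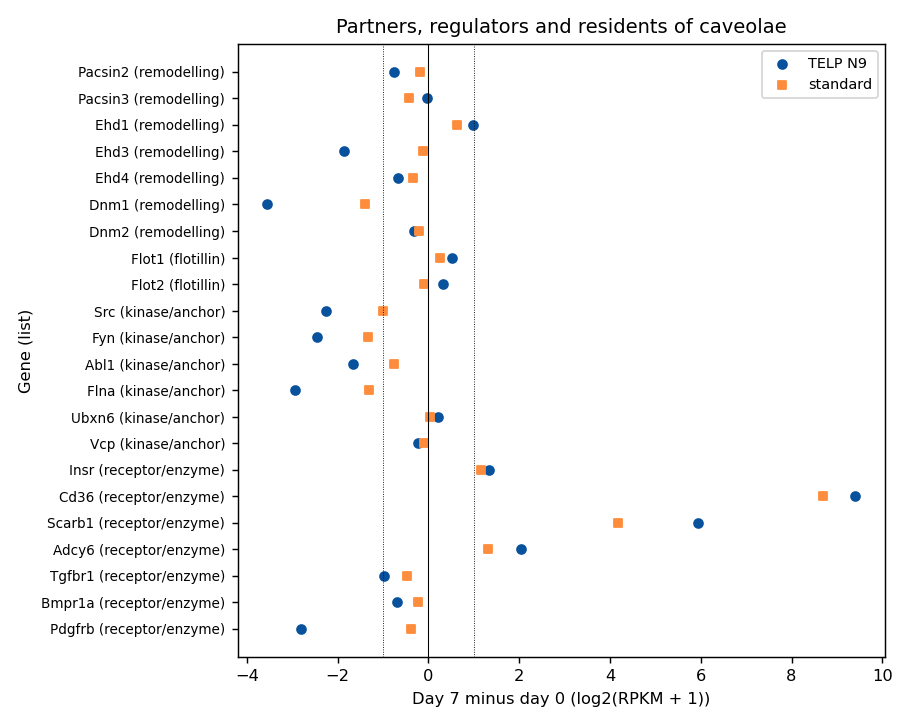
Day 7 minus day 0 difference in log2(RPKM + 1) for the 22 measured partners, regulators and residents of caveolae, in TELP N9 (circles) and standard libraries (squares), with dotted lines at the calling threshold of 1. Cd36, Scarb1, Adcy6 and Insr lie above 1 in both types, and Dnm1, Flna, Fyn and Src below -1 in both.

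Endothelial and muscle cells are also rich in caveolae, and nearly all of their markers were at or near 0 on day 7. The 6 endothelial markers summed in TELP N9 to 0.902 RPKM on day 7 against 9.72 on day 0, and in the standard pair to 4.00 RPKM on day 7 against 11.5 on day 0, and Plvap alone was above 0 in TELP N9 at day 7. The lower sums came from Tek, listed at 0 on day 7 against 9.46 RPKM on day 0 in TELP N9, and at 1.18 on day 7 against 11.2 on day 0 in the standard pair. Plvap, a gene of the diaphragm of endothelial caveolae, went the other way, at 0.902 RPKM on day 7 against 0.146 on day 0 in TELP N9, and 2.61 on day 7 against 0.153 on day 0 in the standard pair. The 6 muscle markers summed in TELP N9 to 1.27 RPKM on day 7 against 0.146 on day 0, and in the standard pair to 0.690 RPKM on day 7 against 0.0243 on day 0, with Des alone above 0 in both day 7 libraries. The 5 macrophage and leukocyte markers summed in TELP N9 to 6.19 RPKM on day 7 against 3.36 on day 0, and in the standard pair to 3.30 RPKM on day 7 against 2.97 on day 0. These higher sums came from Cd68, which differed by 2.002 in TELP N9 and by 0.48 in the standard pair. Cd14 went the other way, at -0.64 in TELP N9 and -0.27 in the standard pair. Ptprc, Emr1 and Csf1r were listed at 0 in TELP N9 at day 7. The 5 preadipocyte markers summed in TELP N9 to 41.0 RPKM on day 7 against 278 on day 0, and in the standard pair to 157 RPKM on day 7 against 245 on day 0, with 2 of 5 called lower in both. The part of these markers' cells in the caveolae values was not tested.

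Likeness of pattern was measured as the root mean square difference of log2(RPKM + 1) after subtracting each gene's mean, over 5 libraries without N9_ss, among 7471 genes that averaged 5 RPKM or more over them. By this measure Cav1 and Cav2 lay 0.27 apart, with 11 of 7470 genes nearer to Cav1. Ptrf and Ehd2 lay 0.31 apart, with 50 genes nearer to Ptrf, and between them and the caveolins the distance was 1.53 to 1.72. That separation rests largely on T18. Without T18, Ehd2 lay 0.45 from Cav1, 0.34 from Ptrf and 0.32 from Sdpr, and Ptrf lay 0.77 from Cav1. Cav1 and Cav2 were again 0.27 apart, but 88 genes were then nearer to Cav1. For Ptrf, 688 genes were then nearer than Ehd2. Sdpr lay 0.60 from Cav1, or 0.31 without T18, and Prkcdbp lay no nearer than 0.76 to any member, or 0.67 without T18. The nearest genes were Aldh6a1, Echs1 and Ndufs7 for Cav1 (0.13 to 0.16), 5730508B09Rik, Mpc1 and Mc5r for Cav2 (0.15 to 0.20), Qsox1, 1110007C09Rik and Ube2m for Ptrf (0.15 to 0.16), Sh3glb2, Ech1 and Mecr for Sdpr (0.08 to 0.10), Galk1, Slc35a2 and Cox7a2l for Prkcdbp (0.05 to 0.12), and Prr5, Fastk and Picalm for Ehd2 (0.16 to 0.21). Of these 18 nearest genes 1 was again among the nearest when T18 was left out. Of those of Cav2, 5730508B09Rik and Mc5r were under 1 RPKM at day 0, at 0.662 and 0.414 in TELP N9 and 0.447 and 0.290 in standard. The added 1 RPKM understates their differences, so their likeness to Cav2 rests in part on it.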

How the data were processed

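RNA was measured in 6 libraries of C3H10T1/2 cells, and the other 17 samples, chromatin immunoprecipitation libraries, were not analysed here. For 24029 genes the authors deposited RPKM, 1 column per library. Bowtie2, TopHat and Cufflinks and the mm9 build are named per the submitters' processing notes. Their versions and the gene annotation were not given in the sources used here. RPKM is no count, so no count test was run.

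The members, gene lists and named-gene rule were chosen with earlier results of these data known. The rule names the 6 members, both flotillins, up to 3 genes of each list with calls in both types, and the 3 nearest genes of each member (small RNA genes left out); other genes were named after their values were seen. Differences use log2(RPKM + 1), which understates changes of low genes, after a filter at a mean of 1 RPKM over the libraries compared, with a call at 1. An exact 0 can be a failed estimate. Depth came from steps of low values; its scale rests on 53 of 200 short genes after deducting 202 bp from each length, and is approximate. Intervals are exact Poisson intervals for 1 kb of model and cover counting error only.

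limma 3.58.1 in R 4.3.3 gave adjusted p-values over all genes. Python 3.11.15, numpy 2.4.6, pandas 2.3.3, scipy 1.17.1 and matplotlib 3.10.9 were used. Calls and limma were tested on simulated data. Other settings tried were 0.1 RPKM as the pseudocount, a filter at 5 RPKM or none, median of ratios, equal totals, quantile normalization, and N9_ss or T18 in place of N9. N9_ss in place of N9 for the T18 comparison, a trend of limma's spread on the mean, and distances of patterns without T18, were added after seeing the data.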

Additional observations from a re-analysis of the deposited data

Results flagged for a closer look

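Flot2, a flotillin, had day 7 against day 0 differences of opposite sign in the library types, 0.33 in TELP N9 and -0.11 in the standard libraries, 0.44 apart. Neither value reached the threshold of 1, each type has 1 library per day, and the difference was not tested.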

How the results depend on the processing

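The calls of Cav1, Cav2, Sdpr and Ehd2 as higher at day 7 in both library types held under each pseudocount and scaling tried and with N9_ss in place of N9. A filter cannot change a member's own difference, so the filters do not test these calls. The trend in limma's spread left 0 of 6 members past limma. T18 in place of N9 changed most, with medians of all genes at -2.06 for day 7 against day 0, -1.89 against standard at day 7 and -1.93 for the difference of folds. Each of these medians lies below -1, so most genes were called lower too, though the exact share was not counted. The lower calls of members with T18 are thus not particular to them. Of the TELP calls at day 7, 5 of 6 higher became 2 higher (Cav1 and Cav2) and 3 lower, Ptrf at -2.91, Ehd2 at -2.76 and Prkcdbp at -2.68, with Sdpr uncalled at -0.38, and 2 instead of 4 were called in both types. Against standard at day 7, 3 of 6 higher became 4 of 6 lower in T18, Ehd2 at -3.95, Ptrf at -3.30, Sdpr at -1.67 and Prkcdbp at -1.56, with Cav2 uncalled at -0.23. For the difference of folds, 4 of 6 were lower in place of 3 of 6 higher, Ehd2 at -3.84, Ptrf at -3.23, Prkcdbp at -2.10 and Sdpr at -2.02, with Cav1 at -0.31 and Cav2 at -0.44 uncalled. The N9 against standard count at day 7 was 6 under median of ratios, 0 under equal totals and 1 under quantile normalization, and that for the difference of folds 5, 0 and 1. The T18 against N9 count of 6 was 2 under median of ratios and 2 under quantile normalization, with Cav1 at 0.55 and 0.48 and Cav2 at 0.52 and 0.44. Members past limma numbered 2 under equal totals against 0 as deposited, while genes called higher by limma numbered 416 against 82. The causes were not tested. Of 294 values of single members, 249 kept both sign and call or lack of one, 15 lost a call, 6 gained one with the sign kept, and the sign changed in 13 called and 11 uncalled values. The 249 include all values under the filter settings, which were the same by construction. No paired analysis was possible by replicate number because each RNA group holds 1 library and the labels number no RNA replicates; limma's block pairs the days within library type instead. Depth limits T18 most, where Ehd2 rests on about 61.9 reads per kilobase.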

Other observations

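The genes next to the caveolae genes, taken by position in the RefSeq gene list of GRCm38.p6 and not by value, did not follow them as a rule. Cav2 and Cav1 are flanked by Tes and Met on chromosome 6. Tes, a focal adhesion protein, was at 0.973 RPKM at day 7, against 4.60 at day 0, in TELP N9, and at 0.315 RPKM at day 7, against 4.28 at day 0, in the standard pair, and so was called lower in both. Met, the receptor for hepatocyte growth factor, differed by -0.44 in TELP N9 and by -0.30 in the standard pair. On chromosome 1 the neighbour of Sdpr is Nabp1, a single-stranded DNA binding protein, which was at 313 RPKM at day 7, against 5.36 at day 0, in TELP N9, and at 178 RPKM at day 7, against 4.19 at day 0, in the standard pair. Its differences of 5.63 in TELP N9 and 5.11 in the standard pair were larger than those of Sdpr. Beside Ptrf on chromosome 11, Stat3 differed by -1.38 and -0.64 and Atp6v0a1 by 0.37 and 0.63 in TELP N9 and standard. Of the neighbours that passed the filter, none but Tes, Nabp1 and the caveolins themselves was called in both library types.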
